A study of Mus musculus with 24 samples.

Results

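The miR-146 family of the mouse has 2 precursors, mmu-mir-146a and mmu-mir-146b (mir-146a and mir-146b from here on), and both were among the 1187 microRNA precursors counted in BV2 cells and in extracellular vesicles (EVs) shed by them. They were found by name in the deposited count tables. BV2 is an immortalised mouse microglial line. The cells had been kept for 72 h with LPS at 100 ng/mL, with IL-10 at 50 ng/mL or with TGF-β at 50 ng/mL, or were controls. Cells and EVs of each of these 4 states make 8 groups, with 3 libraries a group and 24 in all. LPS (lipopolysaccharide) is a bacterial ligand of Toll-like receptor 4, and the cytokines IL-10 (interleukin-10) and TGF-β (transforming growth factor β) are known to restrain inflammation. All groups come from the same cell line. No label ties the 3 libraries of a group to separate cultures, so p-values here reflect only the spread among these samples, and part or all of that spread may be technical. Libraries are numbered here as in the column names, and a number does not tie an EV library to a cell library.

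miR-146 is known as a brake on innate immune signalling. Toll-like receptor signals pass through the kinase Irak1 and the ubiquitin ligase Traf6 to NF-kB, NF-kB raises transcription of mir-146a, and the mature miR-146 lowers Irak1 and Traf6, which closes a negative feedback loop. A microRNA finds its targets mainly through its seed, bases 2 to 8 from the 5′ end, so members with the same seed can reach largely the same transcripts.

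The mature 5p arms are shown first because they define the family, with the seed in capitals. Sequences are from RefSeq (GRCm38.p6), where both members were matched.
miR-146a-5p: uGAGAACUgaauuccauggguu
miR-146b-5p: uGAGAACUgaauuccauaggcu
The seed was the same in both, and of 1738 mature microRNA entries in the RefSeq table only these 2 carried it. The 2 arms were identical at 20 of 22 positions, including the first 17 bases. Counted from 1 at the 5′ end, miR-146b-5p differed from miR-146a-5p by G18A and U21C. The 3p arms are shown for contrast, again with the seed in capitals.
miR-146a-3p: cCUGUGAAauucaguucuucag
miR-146b-3p: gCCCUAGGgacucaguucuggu
Without gaps these matched at 4 of 22 positions and their seeds differed. The precursors follow, with both mature arms in capitals, because the deposited counts are per precursor and do not separate the arms.
mir-146a: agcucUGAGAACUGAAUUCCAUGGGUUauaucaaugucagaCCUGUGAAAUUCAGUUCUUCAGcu
mir-146b: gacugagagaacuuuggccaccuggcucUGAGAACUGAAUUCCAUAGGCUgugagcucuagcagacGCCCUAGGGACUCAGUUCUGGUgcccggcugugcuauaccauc

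The precursors lie on different chromosomes (RefSeq, GRCm38.p6; genes from GENCODE M21 on GRCm38). mir-146a, of 65 bases, is at chr11:43374397-43374461 on the minus strand, and its 5p arm is at chr11:43374435-43374456. No other annotated gene overlaps it, and the nearest one is the lincRNA gene Gm12148, on the plus strand 11021 bases away. mir-146b, of 109 bases, is at chr19:46342762-46342870 on the plus strand, with the 5p arm at chr19:46342790-46342811. It lies in an intron of a protein-coding Mfsd13a transcript of 9 exons, on the same strand and after 1 exon. Nfkb2, which encodes the p100/p52 subunit of NF-kB, ends 30.4 kb upstream of mir-146b on the same strand.

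The feedback targets carry sites for this seed. The site searched was AGTTCTCA, the letters that pair with the seed followed by an A, on the transcript strand of the longest annotated 3′ UTR of each gene. Irak1 held 2 such sites in 1526 bases and Traf6 held 4 in 4170 bases. The site occurred in 4.05% of 20981 annotated 3′ UTRs, in 4.43% of those within 25% of the length of that of Irak1 and in 10.8% of those within 25% of that of Traf6. The sites of Irak1 (chr X, minus strand, windows that overlap) and the first 2 of Traf6 (chr 2, plus strand) are printed as DNA with the match in capitals.
Irak1, chrX:74015391-74015414: gactcagaggtcaaAGTTCTCAtg
Irak1, chrX:74015375-74015398: ttctcatgcttggaAGTTCTCAta
Traf6, chr2:101697945-101697968: ccgctctggtgttgAGTTCTCAtt
Traf6, chr2:101698009-101698032: ccctggaaggcttaAGTTCTCAag
These are matches of letters. The tables used here hold no messenger RNA, so the level of Irak1 and Traf6 was not analysed here.

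The total per library was 15071 to 28727 counts in EVs and 185400 to 409969 in cells. A floor of 3 counts came to 0.0104% to 0.0199% in EVs, against 0.000732% to 0.00162% in cells. In the EVs mir-146a reached 3 counts in 9 of 12 libraries and was at 0 in 1, and mir-146b reached 3 counts in 7 and was at 0 in 3. Both were far above it in all 12 cell libraries. Summed over libraries, mir-146a had 292 counts in EVs and 29916 in cells. Intervals and floors cover counting error only, as copies made by PCR cannot be told from separate molecules. The EV libraries were dominated by 1 precursor, mir-6236, at 49.9% to 79.5% of their counts, against 0.574% to 1.63% in cells. Library 1 of the IL-10 EVs stood apart from the other 2 of its group, with 61.2% mir-6236, and tests, mean shares and ratios of the IL-10 EVs are given below also without it. Of 4 myeloid markers mir-142a and mir-342 were detected in EVs, while mir-223 and mir-511 were at 0 in all 12 EV libraries, and all 4 were detected in cells. These are bulk samples, in which fewer cells of a type and less RNA per cell cannot be told apart.

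Both members rose after LPS to rank among the most abundant precursors of the cells. mir-146a had 10338, 7072 and 8703 counts in LPS cells, against 315, 434 and 346 in control cells. mir-146b had 4096, 2789 and 3510 counts in LPS cells, against 286, 384 and 291 in control cells. The groups did not overlap for either member, although the LPS libraries were the shallower ones. The share of all precursors that separate without overlap was not counted, for this or later comparisons. As a share of all counts mir-146a took 4.15 ± 0.309% in LPS cells and 0.1115 ± 0.00739% in control cells (SD, n = 3 each). mir-146b took 1.65 ± 0.131% in LPS cells and 0.0977 ± 0.00366% in control cells. Together the 2 took 5.80 ± 0.439% of the counts in LPS cells and 0.209 ± 0.0107% in control cells.

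Ranked by counts within a library, mir-146a was the 7th precursor in each LPS cell library and between the 58th and the 76th in the control cells. mir-146b was between the 11th and the 15th in LPS cells and between the 64th and the 83rd in control cells. The 6 precursors above mir-146a in LPS cells were mir-5099, let-7a-1, let-7a-2, mir-3535, let-7f-1 and let-7f-2. mir-5099, the highest, took 21.2 ± 1.66% in LPS cells and 12.7 ± 1.53% in control cells. Because shares add up to the whole of a library, the fold changes use TMM factors, edgeR's scaling for composition.

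**Figure D1:**
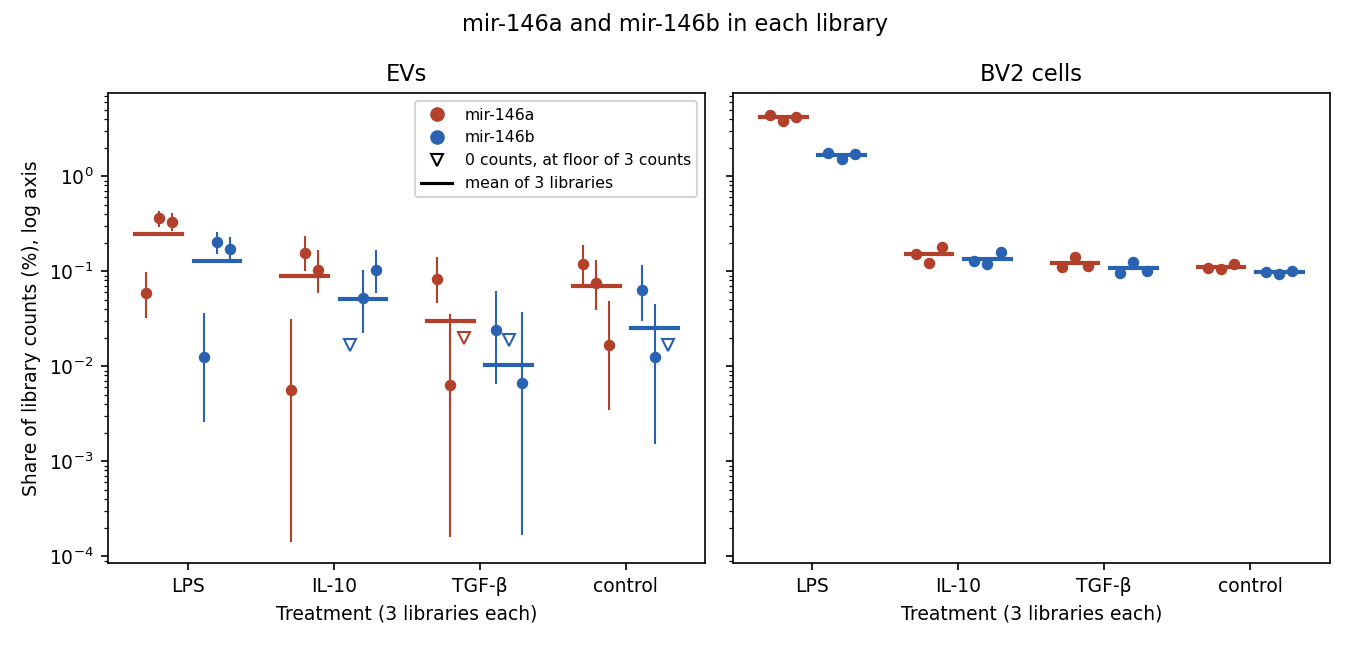
Share of library counts held by mir-146a (red) and mir-146b (blue) in each of the 24 libraries, on a log axis, for EVs (left) and BV2 cells (right). Points are libraries with exact 95% binomial intervals, horizontal lines are means of 3 libraries, and open triangles mark libraries with 0 counts at the floor of 3 counts. The LPS cells sit at 3.81% to 4.42% for mir-146a and 1.50% to 1.75% for mir-146b, above every other library, and the EV libraries of each group spread widely.

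After TMM scaling mir-146a averaged 48324 ± 4097 CPM in LPS cells and 974 ± 97.6 in control cells (SD, n = 3 each). The rise was 49.6-fold, a log2 change of 5.63 ± 0.18 (SE; 95% interval 5.26 to 6.01; edgeR quasi-likelihood F test with Benjamini-Hochberg adjustment, adjusted p = 2.29e-17). mir-146b averaged 19231 ± 1632 CPM in LPS cells and 853 ± 61.4 in control cells. It rose 22.5-fold, a log2 change of 4.49 ± 0.17 (95% interval 4.14 to 4.85, edgeR adjusted p = 4.18e-16). Both members were called, where 32% of the 259 precursors tested were called at an adjusted p under 0.05 and 20.8% were called higher. mir-146a and mir-146b ranked 1st and 2nd of the 259 by p and also by log2 change. The median of all tested precursors was 0.09 in this fit and -0.32 when library totals alone were used. Relative to that median mir-146a was higher by 5.54 under both scalings and mir-146b by 4.40 under both. A change of scaling moves all precursors of a comparison by nearly the same amount. Values relative to the median therefore largely agree by construction, here and in later comparisons, and are no check on the scaling. LPS cells were also above the other treatments. Against IL-10 cells the log2 change was 4.98 ± 0.17 for mir-146a and 3.82 ± 0.16 for mir-146b (edgeR adjusted p = 1.58e-16 and 6.42e-15; 44.4% of precursors called). Against TGF-β cells it was 5.35 ± 0.18 for mir-146a and 4.20 ± 0.17 for mir-146b (edgeR adjusted p = 5.24e-17 and 1.32e-15; 32% called and 18.1% called higher).

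IL-10 gave a much smaller rise of both. mir-146a took 0.153%, 0.122% and 0.181% of the counts in IL-10 cells, against 0.109%, 0.106% and 0.120% in control cells. mir-146b took 0.129%, 0.118% and 0.158% in IL-10 cells, against 0.0987%, 0.0937% and 0.101% in control cells. The lowest IL-10 library was above the highest control library for both members, a separation that was not counted over all precursors. The log2 change was 0.65 ± 0.15 for mir-146a (95% interval 0.33 to 0.97, edgeR adjusted p = 0.0128) and 0.68 ± 0.15 for mir-146b (0.36 to 0.995, adjusted p = 0.00982), or 1.57-fold and 1.60-fold. Of all precursors 7.72% were called and 5.41% were called higher. By p the members ranked 7th and 6th. Both calls depended on which libraries were used. Without library 3 of the IL-10 cells the log2 changes were 0.54 and 0.58 (edgeR adjusted p = 0.0715 and 0.0673), and without library 1 of the control cells they were 0.54 and 0.58 (adjusted p = 0.0616 and 0.0547). Over the other 4 libraries left out in turn both stayed under 0.05.

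TGF-β cells were not separated from control cells. mir-146a took 0.110%, 0.140% and 0.113% in TGF-β cells and mir-146b took 0.0953%, 0.125% and 0.1004%, ranges that overlap the control ranges above. The log2 change was 0.28 ± 0.16 for mir-146a (95% interval -0.04 to 0.60, edgeR adjusted p = 0.282) and 0.29 ± 0.16 for mir-146b (-0.03 to 0.61, adjusted p = 0.258). Of all precursors 6.56% were called and 3.47% were called higher. A p that misses the threshold does not show that the levels were alike, and the intervals reach up to 0.60 and 0.61. IL-10 set against TGF-β gave 0.37 ± 0.15 for mir-146a and 0.39 ± 0.15 for mir-146b (edgeR adjusted p = 0.126 and 0.105; 14.7% of precursors called, 8.11% higher). Those 2 differences passed when TGF-β library 2, the highest of its group, was left out, at 0.55 and 0.57 (adjusted p = 0.0218 and 0.0169).

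**Figure D2:**
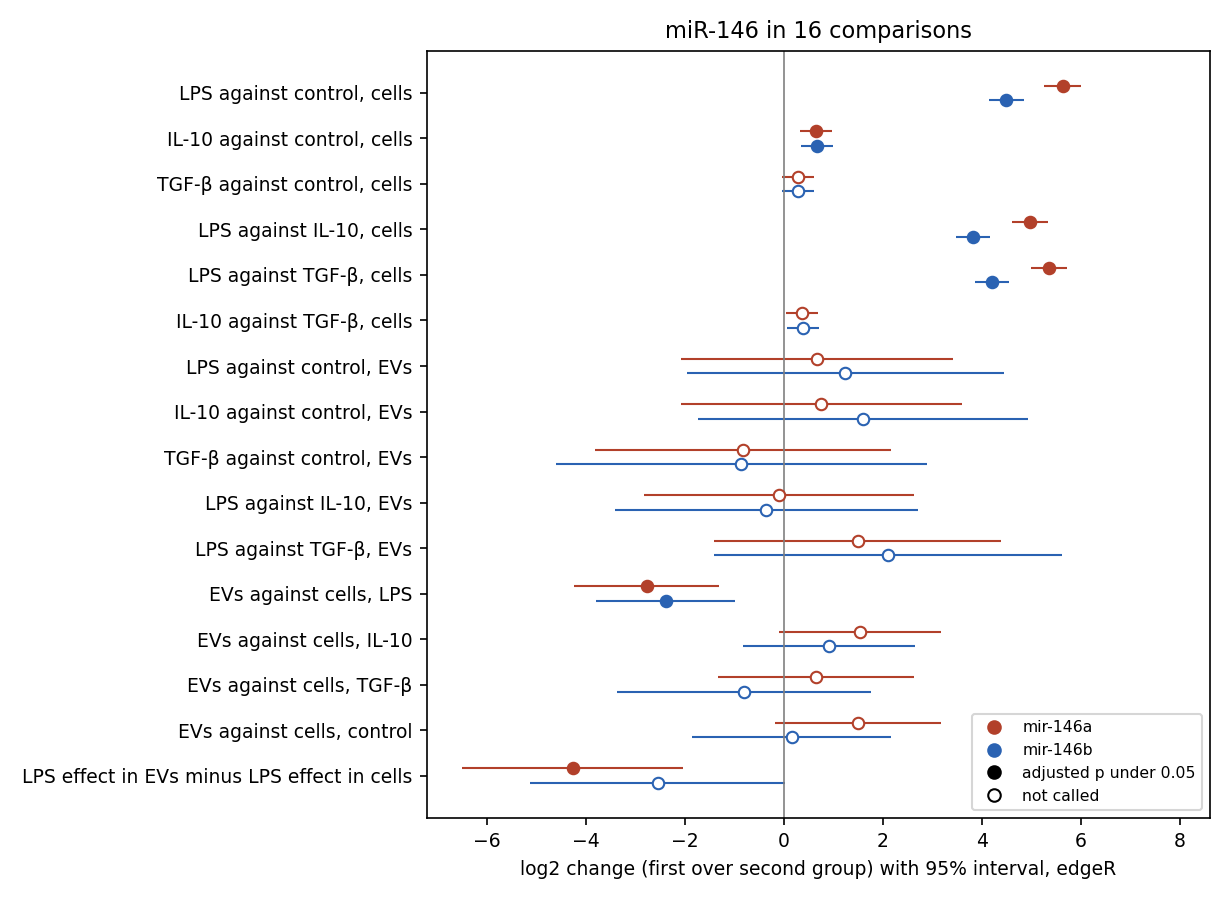
log2 change of mir-146a (red) and mir-146b (blue) in the 16 comparisons, with 95% intervals from edgeR. Filled points passed an adjusted p of 0.05 and open points did not. The 3 comparisons of LPS cells lie between 3.82 and 5.63, and the 5 comparisons among EVs all have intervals that span 0.

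In the cells the 2 members kept a nearly fixed ratio to each other except under LPS. mir-146a had 2.52, 2.54 and 2.48 counts per mir-146b count in the 3 LPS cell libraries. It had 1.19, 1.04 and 1.14 in IL-10 cells, 1.16, 1.13 and 1.12 in TGF-β cells, and 1.10, 1.13 and 1.19 in control cells. The LPS libraries stood clear of the other 9, which did not separate by group. This ratio is taken within a library and does not depend on depth or scaling. On the log2 scale it averaged 1.33 ± 0.017 in LPS cells and 0.19 ± 0.056 in control cells (SD, n = 3 each), a difference of 1.14. A two-sided exact permutation test of LPS against control gave p = 0.1, the smallest that 3 against 3 can give, and an exact permutation F test over the 4 groups gave p = 0.0172. For IL-10 and TGF-β against control the differences were -0.02 and -0.01 (exact permutation p = 0.9 and 0.8). With 1 library left out in turn the LPS difference was 1.12 to 1.17. In the EVs the ratio of summed counts was 1.92 after LPS, 1.71 after IL-10, 3.00 after TGF-β and 2.83 in controls, the last 2 from 5 and 12 counts of mir-146b. Without IL-10 EV library 1 it was 1.67 after IL-10.

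How reads that match more than 1 precursor were counted is not given in the sources used here. Of 25 pairs of numbered precursor copies with at least 100 counts each in the cells, such as let-7a-1 and let-7a-2, 21 had summed counts within 10% of each other. The 5p arms of mir-146a and mir-146b share their first 17 bases, so a read that ends there cannot be assigned to one of them. Whether shared reads hold the ratio near 1.1 in the 9 other libraries was not tested, nor was their part in the LPS rise of mir-146b.

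**Figure D3:**
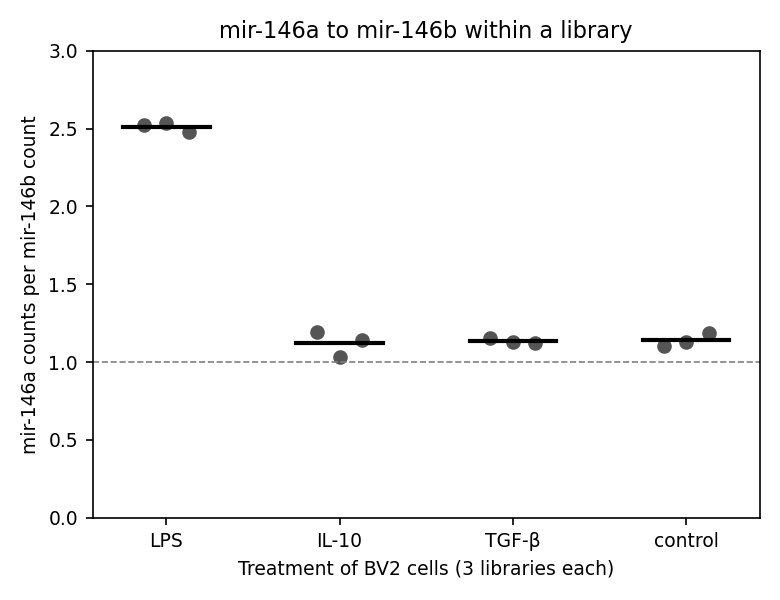
Counts of mir-146a per count of mir-146b in each of the 12 cell libraries. Points are libraries, horizontal lines are geometric means of 3 libraries and the dashed line marks equal counts. The LPS libraries lie at 2.48 to 2.54 and the other 9 at 1.04 to 1.19.

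Of other precursors known to be raised through Toll-like receptor 4 and NF-kB, those tested were also higher in LPS cells. The list, chosen with earlier results of these data known, had 11 members in the deposited data. Of these, 5 passed the filter on low counts, and all 5 rose, where 20.8% of all 259 were called higher. A precursor can pass this filter through the group where it is high, so the 5 are not independent support. Among the untested members, summed counts in LPS and control cells were 9 and 13 for mir-212 and 6 and 2 for mir-147. They were 0 and 3 for each of mir-9-1, mir-9-2 and mir-9-3, and 0 and 0 for mir-187. The median log2 change of the 5 was 2.29, beside 0.09 over all 259. mir-155, which is processed from the Bic transcript and targets inhibitors of inflammatory signalling such as Socs1, had 79, 60 and 57 counts in LPS cells, against 7, 8 and 9 in control cells. Its log2 change was 4.06 ± 0.30 (edgeR adjusted p = 1.4e-10). mir-222 and mir-221, which share a transcript and target the cell cycle inhibitor p27, changed by 2.29 ± 0.13 and 1.66 ± 0.14 (adjusted p = 2.56e-12 and 8.97e-10). mir-21a, known for targeting Pdcd4, changed by 2.02 ± 0.14 (5.53e-11). mir-132 rested on 8, 4 and 8 counts in LPS cells, against 1, 3 and 4 in control cells, and changed by 2.32 ± 0.66 (0.0107). In LPS cells the miR-146 pair also stood above these in level, since mir-21a, the most abundant of the 5, took 0.493 ± 0.0312% of counts there. This did not hold in control cells. There mir-21a took 0.161 ± 0.0123%, above mir-146a at 0.1115% and mir-146b at 0.0977%, though below the 2 together at 0.209%.

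In IL-10 cells 2 of the 5 rose, where 5.41% of all 259 were called higher, with a median of 0.76 beside 0.05 over all. They were mir-21a (1.90 ± 0.14, edgeR adjusted p = 9.48e-10) and mir-222 (0.76 ± 0.13, 0.000371). mir-155 was at 0.73 ± 0.40 (0.243), mir-132 at 1.59 ± 0.65 (0.12) and mir-221 at 0.39 ± 0.14 (0.0694). mir-21a took 0.523 ± 0.0515% of counts in IL-10 cells, close to its share in LPS cells, whereas the miR-146 pair took 0.287 ± 0.0497% in IL-10 cells against 5.80% in LPS cells. In TGF-β cells 2 of the 5 fell, mir-21a (-1.03 ± 0.14, 4.14e-05) and mir-222 (-1.05 ± 0.14, 4.14e-05), and the median was -0.45 beside 0.09 over all, where 3.09% of all precursors were called lower.

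A second list held precursors reported to target components of Toll-like receptor or NF-kB signalling, of which 16 were in the deposited data and 13 were tested. Of those 13, mir-21a and mir-155 are also on the first list. After LPS 3 of the 13 rose, mir-21a, mir-155 and mir-16-2 (0.41 ± 0.15, edgeR adjusted p = 0.0452), whose mature 5p sequence is also that of mir-16-1, and 3 fell, where 20.8% of all precursors were called higher and 11.2% lower. The count that rose is near that of all precursors. Those that fell were mir-210, a precursor raised by hypoxia (-2.93 ± 0.33, 2.02e-07), mir-15a (-0.91 ± 0.35, 0.0472) and mir-223, a myeloid precursor (-0.66 ± 0.24, 0.043). The list median was -0.30. After IL-10 2 rose, mir-21a and let-7e (0.49 ± 0.14, 0.0339), and mir-210 fell (-1.12 ± 0.29, 0.0201), where 5.41% of all were called higher and 2.32% lower, with a median of 0.28. After TGF-β let-7i rose (0.74 ± 0.13, 0.000345), mir-21a, mir-210 (-1.88 ± 0.30, 0.000111) and mir-223 (-1.70 ± 0.25, 4.14e-05) fell, where 3.47% of all were called higher and 3.09% lower, and the median was -0.43. In log2 change of LPS cells over control cells, both miR-146 precursors were above the 13 tested members of this list, of which mir-155 had the highest.

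**Figure D4:**
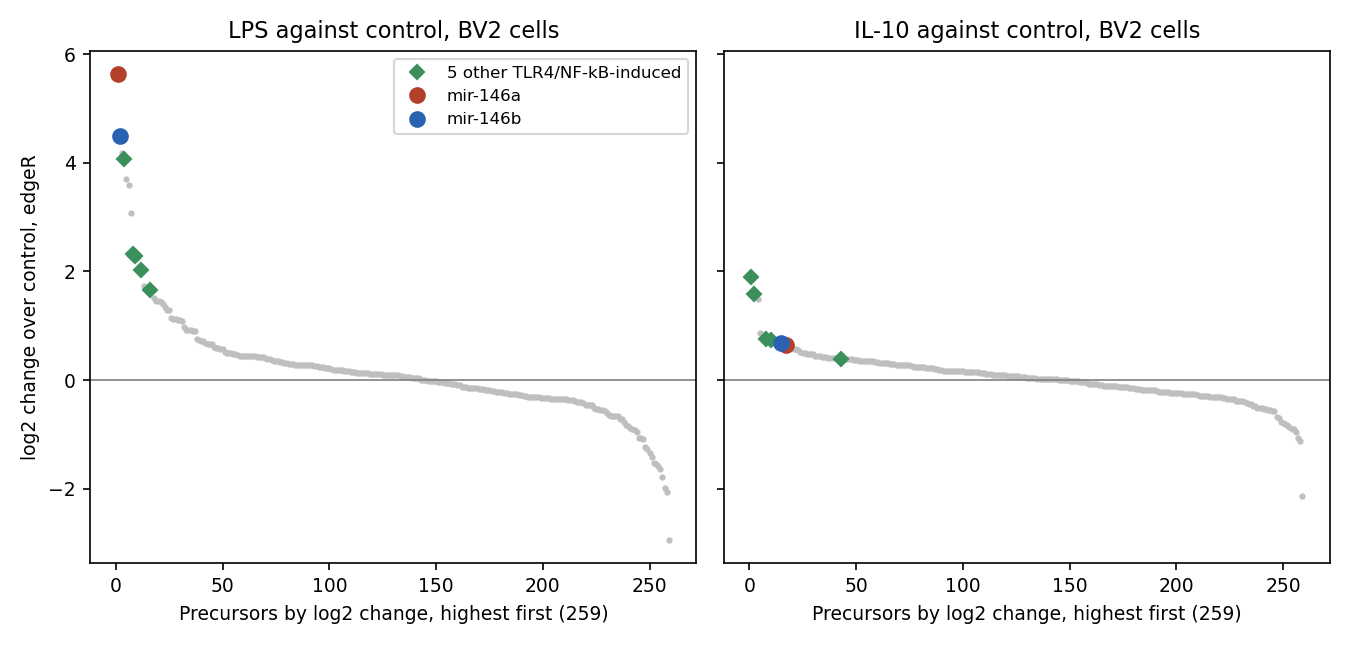
log2 change over control of the 259 precursors tested in BV2 cells, ordered from highest to lowest, after LPS (left) and IL-10 (right), with the 2 miR-146 precursors and the 5 tested precursors of the TLR4/NF-kB list marked. mir-146a and mir-146b lead the LPS panel at 5.63 and 4.49, and are 17th and 15th after IL-10 at 0.65 and 0.68.

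Across the 12 cell libraries the log2 level of mir-146a followed that of mir-146b with a Pearson r of 0.999, and with r = 0.983 over the 9 libraries without LPS. The libraries share scaling and the LPS group stands apart, so these are descriptions. The part of reads that match both precursors in these r values was not tested. The 5 precursors most like mir-146a over the 12 libraries were mir-155 (r = 0.98), mir-1983 (0.978), mir-320 (0.97), mir-7a-1 (0.968) and mir-6240 (0.958), and mir-146b had the same 5. All 5 were called higher after LPS, with log2 changes of 1.34 for mir-7a-1 to 4.06 for mir-155, and after IL-10 they were at -0.31 to 0.73 with adjusted p of 0.126 to 0.581. Without the LPS libraries 0 of these 5 remained among the 5 nearest to either member, and by Spearman's rho 2 remained for mir-146a and 1 for mir-146b. The likeness therefore rested on the LPS libraries.

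In the EVs neither member separated by treatment. mir-146a had 14, 103 and 85 counts in LPS EVs, 1, 24 and 16 in IL-10 EVs, 14, 1 and 0 in TGF-β EVs, and 19, 12 and 3 in control EVs. mir-146b had 3, 58 and 44 counts in LPS EVs, 0, 8 and 16 in IL-10 EVs, 4, 0 and 1 in TGF-β EVs, and 10, 2 and 0 in control EVs. By counts and by shares libraries 2 and 3 of the LPS EVs were above every other EV library for both members, and by shares library 1 lay within the control range. After TMM scaling this order did not hold, with mir-146a at 1919 and 1476 CPM in LPS EV libraries 2 and 3 and at 2274 and 1874 CPM in IL-10 EV libraries 2 and 3. mir-146b was at 1081 and 764 CPM in LPS EV libraries 2 and 3 and at 1874 CPM in IL-10 EV library 3. As shares, mir-146a took 0.2485 ± 0.165% in LPS EVs and 0.0704 ± 0.0517% in control EVs (SD, n = 3 each), and mir-146b 0.128 ± 0.101% in LPS EVs and 0.0252 ± 0.0334% in control EVs. The SD within the LPS group was nearly as large as the difference between the means.

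After TMM scaling the log2 change of LPS EVs over control EVs was 0.67 ± 1.27 for mir-146a (95% interval -2.08 to 3.41, edgeR adjusted p = 0.756) and 1.25 ± 1.47 for mir-146b (-1.95 to 4.44, adjusted p = 0.612). Of the 71 precursors tested in EVs 18.3% were called. The TMM factors were 1.52 to 2.23 in LPS EVs and 0.735 to 0.984 in control EVs. With library totals alone the changes were 1.82 and 2.34 and the median of all 71 was 1.10, which leaves 0.72 and 1.24 relative to the median, against 0.65 and 1.22 with TMM. With 1 library left out in turn the TMM changes were 0.075 (without control library 3) to 1.15 (without control library 1) for mir-146a and 0.53 (without LPS library 2) to 3.04 (without control library 1) for mir-146b, none of them called. For IL-10 the changes were 0.76 ± 1.31 and 1.60 ± 1.54 (adjusted p = 0.936 and 0.875). In that comparison edgeR called 0 of 71 precursors (0%), 5 had an unadjusted p under 0.05, and DESeq2 also called 0. Without IL-10 EV library 1 the changes were 1.39 and 2.26 (adjusted p = 0.623 and 0.576). For TGF-β they were -0.82 ± 1.38 and -0.85 ± 1.73 (adjusted p = 0.868 for both; 4.23% called). TGF-β EV library 1 held 14 of the 15 mir-146a counts of its group, and without it the mir-146a change was -4.18 (adjusted p = 0.274). LPS against IL-10 gave -0.09 ± 1.26 and -0.35 ± 1.41 (adjusted p = 0.956 and 0.854; 23.9% called). These signs turned with library totals, at 1.50 and 1.32, and without IL-10 EV library 1 the values were -0.68 and -0.97. LPS against TGF-β gave 1.49 ± 1.34 and 2.10 ± 1.62 (0.415 and 0.361; 31% called and 8.45% called higher). With 1 library left out these were 0.70 to 4.75 and 1.28 to 3.72, both highest without TGF-β EV library 1 (adjusted p = 0.0611 and 0.241). Intervals of this width cover both no change and changes of several log2 units, so a treatment effect on miR-146 in EVs was not detectable in these libraries. Within each EV group every pair of libraries differed beyond counting error, with chi-square per degree of freedom of 5.18 to 33.5 over precursors.

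Ordered by mean share, LPS cells came first for both members and did not overlap the next group. For mir-146a LPS EVs, IL-10 cells, TGF-β cells, control cells, IL-10 EVs, control EVs and TGF-β EVs followed in that order, and each of these overlapped its neighbour. For mir-146b IL-10 cells came before LPS EVs, and the rest of the order and the overlaps were the same. Without IL-10 EV library 1 the mean of mir-146a in IL-10 EVs was 0.129%, above TGF-β cells and control cells, and that of mir-146b was 0.0773%, with its place unchanged. The place of the EVs also depends on mir-6236 and mir-6240. With these left out of the totals, mir-146a took 0.600% in LPS EVs, 0.734% in IL-10 EVs, 0.222% in TGF-β EVs and 0.416% in control EVs, and without library 1 the IL-10 EVs were at 1.09%.

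LPS EVs held less miR-146 than LPS cells. The mean share of mir-146a in LPS EVs was 0.0599 of that in LPS cells, and that of mir-146b 0.0776. The highest LPS EV library, at 0.359% for mir-146a and 0.202% for mir-146b, was far below the lowest LPS cell library, at 3.81% and 1.50%. With TMM factors over the 24 libraries the log2 difference was -2.77 ± 0.71 for mir-146a (95% interval -4.23 to -1.30, edgeR adjusted p = 0.00369) and -2.38 ± 0.68 for mir-146b (-3.79 to -0.98, adjusted p = 0.00868). Of the 280 precursors tested 30.7% were called and 9.64% were called lower. mir-146a was called in the reported fit and under each of the 8 alternative settings run, at -4.06 to -2.54, and with each library left out. mir-146b was called in 8 of these 9 fits, and not by DESeq2's Wald test (adjusted p = 0.0746). Its call was also lost without LPS cell library 1 (-2.08, adjusted p = 0.0575) or library 2 (-2.10, adjusted p = 0.0556).

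In the other states the direction depended on the scaling, and for some values on single libraries. With TMM the EVs against cells differences for mir-146a were 1.54 ± 0.79 after IL-10, 0.65 ± 0.96 after TGF-β and 1.50 ± 0.81 in controls (edgeR adjusted p = 0.113, 0.614 and 0.140). For mir-146b they were 0.91 ± 0.84, -0.81 ± 1.25 and 0.16 ± 0.98 (adjusted p = 0.362, 0.631 and 0.896). The share of all 280 precursors called was 43.2% after IL-10 (27.5% higher), 43.2% after TGF-β (17.9% lower) and 38.6% in controls (26.1% higher). With library totals alone mir-146a was at -0.81, -1.97 and -0.68 in these states. There the median of all 280 was -2.81, -2.99 and -2.68, against -0.80, -0.74 and -0.54 with TMM. Relative to the median mir-146a was higher in EVs by 2.34, 1.40 and 2.04 with TMM and by 2.00, 1.02 and 2.00 with library totals. The values after TGF-β rested on 14, 1 and 0 counts of mir-146a in the EVs. With 1 library left out, the TMM difference after TGF-β, not relative to the median, was -3.49 to 1.03 for mir-146a. mir-146b was at 1.71, -0.06 and 0.70 relative to the median with TMM and at 1.39, -0.36 and 0.68 with library totals. After LPS mir-146a was lower than the median by either scaling, at -2.77 and -2.92. Without IL-10 EV library 1 the IL-10 value for mir-146a was 1.91 (adjusted p = 0.0244) and that for mir-146b 1.31 (adjusted p = 0.176).

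The LPS effect on mir-146a was smaller in EVs than in cells. The effect in EVs minus the effect in cells was -4.26 ± 1.08 for mir-146a (95% interval -6.49 to -2.04, edgeR adjusted p = 0.0174), where 6.07% of the 280 precursors were called, 2.5% higher and 3.57% lower, and the median was 0.38. It was called in the reported fit and under each of the 8 alternative settings, at -4.95 to -3.37, and in 11 of 12 fits with 1 library left out. Without library 1 of the control EVs it was -3.42 (adjusted p = 0.0755). For mir-146b it was -2.54 ± 1.25 (-5.12 to 0.03, adjusted p = 0.179), which does not show that the effect on mir-146b was alike in both. With 1 library left out it was -3.12 to -0.29, the last without library 1 of the control EVs. The mir-146a counts behind the EV side of this difference were 14, 103 and 85 after LPS and 19, 12 and 3 in controls.

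Summed shares of some markers of other cell types differed between EVs and cells, and those of some between LPS EVs and control EVs. Epithelium markers, of which mir-203 made up most counts, summed to 0.0209% to 0.945% of EV libraries and 0.000693% to 0.00599% of cell libraries (4 of 8 detected in EVs, 5 of 8 in cells). Muscle markers summed to 0.0193% to 0.158% in EVs and 0% to 0.00162% in cells (5 of 6 detected in EVs, 2 of 6 in cells). Within the EVs, epithelium markers took 0.0209% to 0.0619% in LPS EVs and 0.112% to 0.132% in control EVs, and muscle markers 0.0193% to 0.0244% in LPS EVs and 0.0720% to 0.158% in control EVs. Serum, red cell and liver markers reached 0.141% in EVs and 0.00114% in cells (3 of 5 in both). The 0.141% was in IL-10 EVs, where all 25 counts were of mir-144 and mir-451a was at 0. These markers took 0% to 0.00835% in LPS EVs and 0% to 0.127% in control EVs, ranges that overlap. All 23 counts in control EVs, 11 of mir-144 and 12 of mir-486a, were in library 3. Neuron markers (7 of 7 in both) took 0% to 0.0174% in LPS EVs and 0.0499% to 0.227% in control EVs, on 7 and 64 summed counts. Of the 64, mir-124-1, mir-124-2 and mir-124-3 had 18 counts each. Astrocyte and neural progenitor markers (3 of 3) took 0% to 0.0104% in LPS EVs and 0% to 0.265% in control EVs, on 3 and 42 summed counts. The 42 were 14 counts for each of mir-9-1, mir-9-2 and mir-9-3, all in control EV library 1. Oligodendrocyte markers (3 of 3 over the EVs) took 0% to 0.0125% in LPS EVs and 0% to 0.170% in control EVs, on 3 and 28 summed counts. The 0.170% was also that of control EV library 1. For both lists the ranges of LPS EVs and control EVs overlapped. Of the control EVs, library 1 also had the most counts of mir-146a and mir-146b, at 19 and 10. Endothelium markers were at most 0.126% in EVs and 0.0185% in cells. Their maximum was higher in LPS EVs, at 0% to 0.0155%, than in control EVs, at 0% to 0.00624%, on 4 counts and 1 count. The part of these RNAs in the EV values of miR-146 was not tested.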

How the data were processed

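Small RNA libraries from BV2 cells and EVs were prepared with a SMARTer kit, per the labels' protocols. The authors deposited whole-number counts per precursor, with no normalization. DESeq2 is named in the submitters' processing notes. For the aligner, build and annotation, the entry is: not given in the sources used here. There were 8 tables, of which 6 were used and 2 were exact copies. Control columns were the same across them and entered once, so comparisons with control share those libraries.

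Comparisons used edgeR 4.0.16 in R 4.3.3: TMM factors, filterByExpr with a minimum count of 10, the quasi-likelihood F test and Benjamini-Hochberg adjustment over the precursors tested in each of 16 comparisons. Cells and EVs were fitted with 12 libraries each (259 and 71 precursors tested, 8 residual degrees of freedom), and EVs against cells with 24 (280 tested, 16 degrees of freedom). SE came from the F statistic. Likeness used log2 CPM with a prior count of 2. The script was tested on simulated data, 10 simulations per comparison. For LPS against control in cells it recovered 88.2% of tested precursors with a simulated log2 change of 1 and 99.8% of those with 2. In EVs it recovered 0% and 12.3% of them, and for EVs against cells in controls 25.7% and 75.5%. Permutation tests used scipy 1.17.1, and intervals of shares are exact (Clopper-Pearson). Named were the 2 members and the 5 precursors nearest to each by Pearson's r. Also named were all tested members of the 2 pathway lists and the 5 precursors with the highest share in LPS cells. Named after their values were seen were let-7f-2, the untested members of the first pathway list, and the dominant and marker precursors. The members and lists were chosen with earlier results of these data known. Alternatives were DESeq2's size factors, library totals, no filter (at least 1 count), a mean count filter of 50, a robust prior, DESeq2 1.42.0 with its Wald test, only the groups compared, leaving out mir-6236 and mir-6240, and each library left out in turn. Shares, their order and the ratio of sums without library 1 of the IL-10 EVs were added after the data were seen.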

Additional observations from a re-analysis of the deposited data

Results flagged for a closer look

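The LPS effect on mir-146a differed between EVs and cells by the interaction term of the fit over 24 libraries, at -4.26 on the log2 scale (edgeR adjusted p = 0.0174). mir-146a had 14, 103 and 85 counts in LPS EVs and 19, 12 and 3 in control EVs, beside 10338, 7072 and 8703 in LPS cells and 315, 434 and 346 in control cells.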

How the results depend on the processing

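In cells the LPS changes kept their direction and calls under all 8 alternatives, at 5.22 to 5.63 for mir-146a and 4.08 to 4.49 for mir-146b. IL-10 against control also kept both calls there, but over single libraries left out it was 0.54 to 0.71 and 0.58 to 0.68. With a mean of at least 50 counts, IL-10 against TGF-β passed, at 0.41 and 0.42; libraries left out gave 0.27 to 0.55 and 0.29 to 0.57. For LPS against IL-10 in EVs the sign turned for mir-146a with DESeq2 size factors (0.068), library totals (1.50), no filter (0.68), the Wald test (0.033) and without mir-6236 and mir-6240 (0.27), and for mir-146b with totals (1.32), no filter (0.38) and without those 2 (0.029); libraries left out gave -0.68 to 0.60 and -0.99 to 0.72. Left-out libraries gave -0.038 to 1.39 for mir-146a in IL-10 against control EVs and -2.57 to 0.86 for mir-146b in TGF-β against control EVs.

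For EVs against cells after IL-10, mir-146a passed with size factors (2.75), no filter (1.36), the 50-count filter (2.38) and the Wald test (2.98), and turned with totals (-0.81); mir-146b turned with totals (-1.42). After TGF-β, mir-146a turned with totals (-1.97, there called, adjusted p = 0.0312) and no filter (-0.44), and mir-146b turned with size factors (0.22), the 50-count filter (0.21) and the Wald test (0.30) and passed with totals (-3.34). In controls, mir-146a passed with size factors (2.34), the Wald test (2.39) and only the groups compared (1.77) and turned with totals (-0.68), and mir-146b turned with totals (-1.998, there called, adjusted p = 0.0339) and no filter (-0.21). After LPS, mir-146b lost its call by the Wald test (-2.17). Without a filter the LPS effect on mir-146b differed between EVs and cells (-2.71). Left-out libraries gave 0.19 to 2.03 (mir-146a) and -0.75 to 1.47 (mir-146b) after IL-10, -3.49 to 1.03 (mir-146a) after TGF-β, -2.48 to 0.42 (mir-146b) in controls, -3.52 to -2.08 (mir-146b) after LPS, and -4.70 to -3.42 for the LPS effect on mir-146a. The cause of these changes was not tested. The 50-count filter left neither member in the EV fits, and mir-146b could not be fitted with only the groups compared in 3 EV comparisons. No paired analysis was possible because GEO's labels give no replicate numbers, and the numbers in the column names only name libraries. Between 0 and 103 counts stand behind each EV value.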
